A study of Mus musculus with 62 samples.

Results

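Gene expression was compared in the soleus, a slow, oxidative hindlimb muscle, between mice bearing a cachectic melanoma and mock-injected mice, 8 weeks after injection. The libraries were chosen by their labels: 7 of the group CAC (cachectic melanoma cells) and 5 of the group Con (mock injection) at week 8, which made 12 of the 62 libraries of the series. The series also holds a group that received non-cachectic melanoma cells (NCAC) and earlier weeks. The 5 NCAC libraries of week 8 and the CAC and Con libraries of week 6 (5 each) are used here to show where the 8-week comparison differs. The mice were female and labelled as 2 months old. The same age is given at every week of the series, and whether it refers to injection or sampling is not stated. The labels disagree on the strain, with C57BL6/J on the individual samples but NCI Ath/nude mice, which lack a thymus, in the design, and the protocol text mentions LLC cells. The strain and the injected line are therefore not stated here. Libraries within a group are labelled biological replicates, without a statement that each is 1 animal, so the p-values measure the spread between these libraries. Values are TPM, transcripts scaled to a fixed total, which add to the same total in every library. The sequencing depth is therefore unknown for every value given. Differences are on the log2(TPM + 1) scale, which understates the change of low genes, with the standard error (SE) from limma and a Benjamini-Hochberg adjusted p over the 12968 genes tested.

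Cachexia is the loss of muscle and fat that accompanies some tumours. In wasting muscle, cytokines of the interleukin-6 family signal through STAT3 to acute phase genes, and glucocorticoids and FoxO factors raise genes that break protein down, among them the ubiquitin ligases Trim63 (MuRF1) and Fbxo32 (atrogin-1). A muscle also holds connective tissue cells, tendon cells, vessels and resident immune cells, whose RNA is part of each library. In bulk libraries of this kind, fewer cells of a type and less RNA per cell cannot be told apart.

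At 8 weeks, 855 genes were higher in CAC (6.59% of those tested) and 748 were lower (5.77%). These shares are the background for the limma counts of every gene list below. At an unadjusted p under 0.05, 3746 of the 12968 genes passed in either direction, so unadjusted list counts have a higher background. The 2 groups did not overlap in 534 genes that were higher (4.12%) and in 376 that were lower (2.9%). Leaving out 1 library at a time gave 451 to 1224 higher and 391 to 1024 lower genes, with the fewest rises without Con replicate 3 and the fewest falls without Con replicate 2. The 10 soleus fibre markers summed to between 38768 and 78731 TPM in CAC and between 53495 and 74716 TPM in Con. A pair of CAC libraries stood apart. Replicate 3 lay on the Con side of the first principal component (37.8% of the variance), at -18.4, where the other CAC libraries lay at 14.2 to 50.6 and the Con libraries at -32.9 to -25.1. Its erythroid markers summed to 27335 TPM, where the other 6 CAC libraries had 1108 to 4130 TPM and Con had 2244 to 5526 TPM. In replicate 6 the fast myosin Myh4 reached 2040 TPM, while it was at 5.525 to 23.6 TPM in the other 6. Without both of them, 1619 genes were higher and 1049 lower, and 1524 of the 1603 calls were kept. Mitochondrially encoded transcripts made up 27.6 ± 2.90% of the TPM in CAC (SD, n = 7) and 28.7 ± 5.97% in Con (SD, n = 5), a difference that did not pass (two-sided exact permutation test, p = 0.669).

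**Figure D1:**
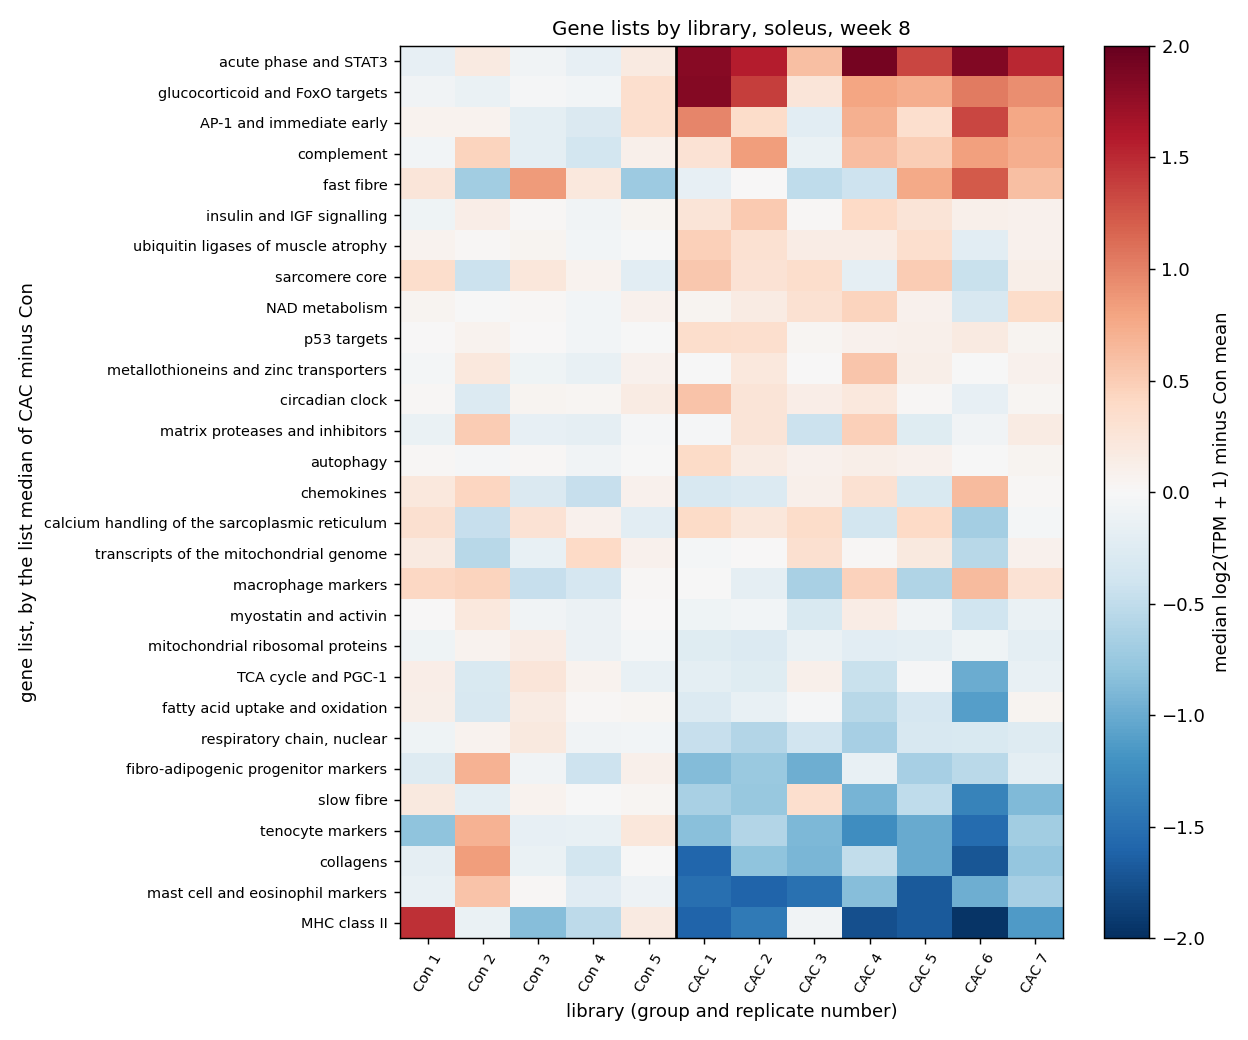
Each cell gives, for 1 gene list (rows) in 1 library (columns), the median over the tested members of log2(TPM + 1) minus the mean of the 5 Con libraries, with red for higher and blue for lower. The acute phase row is red in the 7 CAC libraries, palest in CAC replicate 3 at 0.60, and the collagen and mast cell rows are blue in the 7 CAC libraries.

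Acute phase and STAT3 genes rose together in CAC. Of 23 members tested, 17 rose (background 6.59%) and 0 fell by limma (21 and 0 at an unadjusted p under 0.05), with a median log2 difference of 1.36 against 0.01 over all genes tested. The counts were 18 and 0 without CAC replicate 3, and 14 and 1 of 30 with no filter on low values. Serpina3n, a secreted serine protease inhibitor (chromosome 12, 104406729 to 104414329, mm10), stood at 20.6, 52, 37.7, 33 and 40.3 TPM in the 5 Con libraries. In CAC it ran from 88.7 TPM in replicate 3 through a median of 1113 to a highest value of 1422 TPM. The lowest CAC library lay above the highest Con library, and the log2 difference was 4.37 (SE 0.58, adjusted p = 0.00122). Stat3 itself (chromosome 11, 100885098 to 100939540) stood at 28, 25.1, 25.5, 22.4 and 27.2 TPM in Con and at 43, 61.3 and 67.3 TPM (lowest, median, highest) in CAC. This gene varied little within each group and was separate between them, with a log2 difference of 1.11 (SE 0.13, adjusted p = 8.14e-04).

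The receptor and the feedback inhibitor of the pathway rose with it. Osmr, the oncostatin M receptor, stood at 4.05, 5.5, 4.34, 4.08 and 6.18 TPM in Con and at 9.29, 19.2 and 22.1 TPM in CAC (1.62, SE 0.19, adjusted p = 9.14e-04). Socs3, which shuts off STAT3 signalling, stood at 8.31, 15.1, 6.29, 6.85 and 13.3 TPM in Con and at 15.9, 67.7 and 85.3 TPM in CAC (2.48, SE 0.36, adjusted p = 0.00216). Both were higher in each CAC library than in any Con library, although CAC replicate 3 exceeded the highest Con library by little for Socs3. Sbno2, a transcriptional coregulator induced by STAT3 signalling, rose by 1.33 (SE 0.17, adjusted p = 0.00122), also without overlap. The cytokine transcripts Il6 and Osm stayed under 1 TPM in all 12 libraries and were not tested. The upstream window of RefSeq (GRCm38.p6, 250 bases before each start) was searched on both strands for TTCNNNGAA, a palindrome that STAT factors can bind. It was found in 3 of the 15 risen members with an entry (Itih4, Socs3 and Sbno2), where a match in any window of a gene counted. Over all 32851 windows, 7.02% held it. The first count is per gene and the second share per window, and no background per gene was computed, so they are not directly comparable.

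Genes of secreted acute phase proteins were among the largest rises. Hp, haptoglobin, which binds free haemoglobin (chromosome 8, 109575128 to 109579172), stood at 41, 173, 83.4, 130.1 and 117 TPM in Con. In CAC its lowest, median and highest values were 349, 1991 and 6841 TPM, so the groups were separate (4.06, SE 0.63, adjusted p = 0.0027). Saa1, serum amyloid A, was at or under 2.81 TPM in Con and at 0.95, 43.9 and 368 TPM in CAC, and its lowest CAC library fell among the Con values (3.91, SE 0.92, adjusted p = 0.0171). Lcn2, which sequesters bacterial iron carriers, stood at 0.737, 2.77, 1.51, 1.16 and 2.5 TPM in Con and at 2.8, 36.9 and 114 TPM in CAC (3.59, SE 0.63, adjusted p = 0.00419). Serpina3m rose by 3.89 (SE 0.51, adjusted p = 0.00122) and Serpina3k by 3.05 (SE 0.59, adjusted p = 0.00687). Members of the Serpina3 cluster and the Saa genes are near-identical, and how reads were divided among them is uncertain. Saa3 rose by 3.44 (SE 0.90, adjusted p = 0.0261), from 0.702 to 4.24 TPM in Con to 3.85 to 499 TPM in CAC. That call was lost without Con replicate 1, 2, 3 or 5 (adjusted p 0.0548 to 0.0656).

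**Figure D2:**
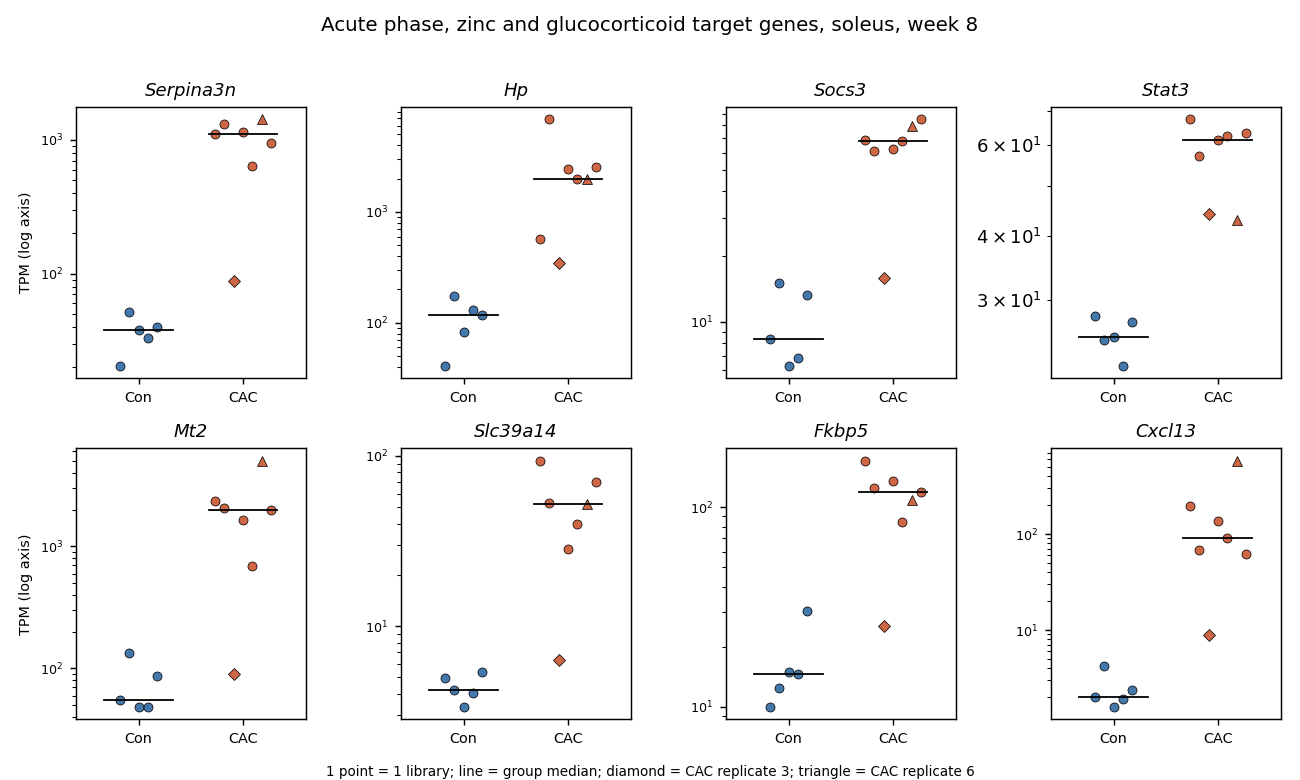
TPM on a log axis in each library of Con (5, blue) and CAC (7, orange), with the group median as a line, for 8 genes that rose. CAC replicate 3 (diamond) is the lowest CAC library for 7 of the 8 genes; for Stat3 it is the second lowest, at 44.2 TPM.

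Among 16 chemokines tested, 4 rose and 2 fell (background 6.59% and 5.77%). The rises numbered 2 without CAC replicate 2 or 7, without Con replicate 2, 3, 4 or 5, or with no filter on low values. Cxcl13, which attracts B cells (chromosome 5, 95956951 to 95961068), showed the largest rise of the named genes. It stood at 2.02, 4.18, 1.58, 1.92 and 2.38 TPM in Con and at 8.85, 90 and 583 TPM in CAC, without overlap (4.82, SE 0.72, adjusted p = 0.00238). Cxcl14, a chemokine of many epithelia and of muscle, stood at 115, 171, 116, 119.9 and 154 TPM in Con and at 138, 745 and 1201 TPM in CAC. Replicate 3 was the CAC library that overlapped with Con (2.22, SE 0.43, adjusted p = 0.00687). Ccl8, a monocyte attractant, was at 28.5 TPM or less in 4 Con libraries but at 233 TPM in Con replicate 1, and at 63.6, 163 and 424 TPM in CAC. Its rise of 2.28 (SE 0.62, adjusted p = 0.0314) was lost without CAC replicate 2 or 7 or without Con replicate 2, 3, 4 or 5 (adjusted p 0.0544 to 0.0847). Ccl24, eotaxin-2, which attracts eosinophils, stood at 18.7, 63.7, 24.6, 15.6 and 30.3 TPM in Con and at 2.47, 6.02 and 15.5 TPM in CAC (-1.87, SE 0.39, adjusted p = 0.01). Cxcl16, a membrane-bound chemokine, had a log2 difference of -0.90 (SE 0.20, adjusted p = 0.0124).

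Complement genes rose in 6 of 22 cases (background 6.59%) and fell in 0 by limma (10 and 3 at an unadjusted p under 0.05). The counts were 9 and 0 without CAC replicate 3, and 5 and 0 of 25 with no filter on low values. C4b, of the classical pathway, stood at 73.8, 103, 53.8, 61.6 and 110.2 TPM in Con and at 149, 286 and 592 TPM in CAC, without overlap (1.99, SE 0.31, adjusted p = 0.00298). C3, on which the pathways converge, stood at 208, 358, 209, 126 and 228 TPM in Con and at 268, 669 and 1016 TPM in CAC (1.64, SE 0.32, adjusted p = 0.00683). C4a rose by 1.65 (SE 0.30, adjusted p = 0.00548), and its reads may be shared with those of C4b. C6, part of the membrane attack complex, rose by 1.89 (SE 0.39, adjusted p = 0.00939) from 0.208 to 0.594 TPM in 4 Con libraries and 3.97 TPM in Con replicate 1 to a median of 6.57 TPM. Other large rises lay outside these lists. Plac8 (3.41, SE 0.58, adjusted p = 0.00356), the secreted phospholipase Pla2g5 (3.21, SE 0.60, adjusted p = 0.00583), fetuin-B gene Fetub (3.11, SE 0.45, adjusted p = 0.00215) and Ifi205 of the interferon-inducible p200 family (2.93, SE 0.50, adjusted p = 0.00356) each lay above the Con mean in 7 of 7 CAC libraries. The interferon response and MHC class I list as a whole had 0 of 35 calls in either direction by limma (0 higher and 7 lower at an unadjusted p under 0.05), with a median of -0.31.

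Metallothioneins, small proteins that bind zinc and copper, and a pair of zinc transporters rose. Of 18 tested genes of this list 4 rose and 0 fell by limma (6 and 1 at an unadjusted p under 0.05), and 6 rose without CAC replicate 3. Mt2 stood at 55.1, 135, 48.5, 48.4 and 86.2 TPM in Con. In CAC it ran from 89.4 TPM in replicate 3 through a median of 1979 to 5052 TPM in replicate 6, so replicate 3 alone lay within the Con range (4.18, SE 0.77, adjusted p = 0.00555). Mt1 stood at 81.3, 182, 125, 115 and 181 TPM in Con and at 136, 1721 and 4635 TPM in CAC (3.20, SE 0.65, adjusted p = 0.00901). The 2 genes lie next to each other on chromosome 8 (94172664 to 94173568 and 94179082 to 94180327) and are near-identical in part, so the share of each is uncertain. Slc39a14, the zinc importer ZIP14, stood at 4.95, 4.2, 3.34, 4.04 and 5.35 TPM in Con and at 6.28, 52.3 and 93.9 TPM in CAC, without overlap (2.92, SE 0.49, adjusted p = 0.00353). Slc30a1, the zinc exporter ZnT1, rose by 0.64 (SE 0.16, adjusted p = 0.0202), a call that was lost without Con replicate 2 or 3 (adjusted p 0.0563 and 0.0532).

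The upstream sequences of 3 of these genes are shown because they rose together and metallothionein promoters are known for metal response elements, to which the zinc sensor MTF1 binds. Each is printed 5′ to 3′ on the plus strand, with matches to the core TGCNCNC on either strand in capitals (RefSeq, GRCm38.p6).
Mt2, chr8:94172368-94172617: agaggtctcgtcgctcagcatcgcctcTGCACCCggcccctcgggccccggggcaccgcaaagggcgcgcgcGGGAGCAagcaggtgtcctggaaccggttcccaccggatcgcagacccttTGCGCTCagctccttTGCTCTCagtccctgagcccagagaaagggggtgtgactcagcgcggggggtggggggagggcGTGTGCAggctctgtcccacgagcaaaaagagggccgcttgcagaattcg
Mt1, chr8:94178839-94179081: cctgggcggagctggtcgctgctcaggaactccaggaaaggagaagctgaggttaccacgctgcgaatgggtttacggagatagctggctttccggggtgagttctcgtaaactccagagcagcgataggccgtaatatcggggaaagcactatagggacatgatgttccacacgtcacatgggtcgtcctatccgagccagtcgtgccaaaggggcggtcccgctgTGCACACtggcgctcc
Slc30a1, chr1:191906531-191906766: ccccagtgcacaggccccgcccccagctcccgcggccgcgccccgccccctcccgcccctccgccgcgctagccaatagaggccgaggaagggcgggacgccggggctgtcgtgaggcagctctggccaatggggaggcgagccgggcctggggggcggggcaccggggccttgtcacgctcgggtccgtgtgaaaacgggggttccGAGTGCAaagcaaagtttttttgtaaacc
The Mt2 window held 5 matches and the windows of Mt1 and Slc30a1 held 1 each. Bases downstream of each window were not searched, so these are not counts for a whole promoter. Slc39a14 had no entry among the upstream sequences and is not shown. The Mt2 window is the full 250 bases before the RefSeq start, which lies upstream of the GENCODE start given above. The windows of Mt1 and Slc30a1 were cut to 243 and 236 bases, to end before the GENCODE start. Over the 32851 upstream windows of the full 250 bases, 44.4% held a match, and 0.344% held 5 or more. A match is a string of letters and does not show a bound site.

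Targets of the glucocorticoid receptor and of FoxO rose in 13 of 25 cases (background 6.59%) and fell in 0 by limma. The counts were 18 and 1 at an unadjusted p under 0.05, and the median was 0.88. Without CAC replicate 3, 16 rose, and 12 rose with no filter on low values. Of the 13, 2 were Mt1 and Mt2, which are also among the 4 rises of the metallothionein and zinc list, so these counts are not separate. Fkbp5, a chaperone that glucocorticoids induce, stood at 9.97, 12.4, 14.9, 14.6 and 30.1 TPM in Con and at 25.3, 119 and 172 TPM in CAC. CAC replicate 3 and Con replicate 5 crossed, and the other libraries were separate (2.60, SE 0.40, adjusted p = 0.00272). Ddit4 (REDD1), an inhibitor of the growth kinase mTORC1, stood at 9.84, 10.7, 17.9, 18.8 and 23.9 TPM in Con and at 37.4, 114 and 491 TPM in CAC, without overlap (3.00, SE 0.53, adjusted p = 0.00419). Sgk1, a kinase induced by glucocorticoids, rose by 1.95 (SE 0.34, adjusted p = 0.00429), and Glul, glutamine synthetase, by 1.74 (SE 0.33, adjusted p = 0.00583). Foxo1 rose from 7.33 to 11.5 TPM in Con to a median of 18.1 TPM in CAC (0.82, SE 0.20, adjusted p = 0.022), which was lost without Con replicate 1 (adjusted p = 0.0578). Pdk4, a switch from glucose to fat use, did not pass, at 229 to 732 TPM in Con and 226 to 577 TPM in CAC (0.12, SE 0.31, adjusted p = 0.846).

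The ubiquitin ligases of muscle atrophy had 3 rises among 20 (background 6.59%) and 0 falls by limma. At an unadjusted p under 0.05 the counts were 6 and 1. The best-known pair did not pass. Trim63 stood at 126, 58.9, 129.7, 122 and 76.4 TPM in Con and at 103, 207 and 1063 TPM in CAC (1.497, SE 0.57, adjusted p = 0.102). It passed without CAC replicate 3 (1.74, adjusted p = 0.0458). Fbxo32 stood at 119, 56, 98.3, 94.1 and 83 TPM in Con and at 67.5, 114 and 531 TPM in CAC (0.93, SE 0.47, adjusted p = 0.212). For both genes CAC replicates 1 and 6 were the highest of the 12 libraries, and the groups overlapped. Fbxo31, an F-box adaptor, rose from 28.5 to 42.5 TPM in Con to 41.6, 132 and 351 TPM in CAC (1.78, SE 0.39, adjusted p = 0.0123). Cblb, a ligase that acts on IRS1, rose by 0.71 without overlap (SE 0.16, adjusted p = 0.0123). Fbxo30 rose by 0.46 (SE 0.14, adjusted p = 0.0418), which was lost without CAC replicate 1, 2, 4, 5 or 6 or Con replicate 2, 3, 4 or 5 (adjusted p 0.0526 to 0.112). Of the autophagy genes 1 of 27 passed, Map1lc3b, the LC3B membrane marker (0.91, SE 0.26, adjusted p = 0.0364). That call was lost without CAC replicate 1, 2 or 7 or any of the Con replicates (adjusted p 0.0563 to 0.0849), while 4 autophagy genes passed without CAC replicate 3 and 3 without CAC replicate 5 or 6. The proteasome core and cap had 1 call among 32, and its sum of 3739 to 4744 TPM in CAC overlapped with the 3713 to 4155 TPM in Con.

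Among AP-1 and immediate early genes 7 of 22 rose (background 6.59%) and 0 fell by limma (9 and 1 at an unadjusted p under 0.05). The rises numbered 4 without Con replicate 1 or 4 or with no filter on low values, and 3 without Con replicate 3. The list of ATF4 and C/EBP stress genes had 2 rises and 4 falls among 25 (background 6.59% and 5.77%), with a median of -0.02. Junb, an AP-1 subunit, stood at 35.1, 41.3, 24.8, 24.5 and 35.8 TPM in Con and at 43.6, 82.8 and 184 TPM in CAC, without overlap (1.40, SE 0.28, adjusted p = 0.0088). Fosl2, another subunit, rose by 1.08 (SE 0.21, adjusted p = 0.00755), and the stress-inducible Ier3 by 0.77 (SE 0.15, adjusted p = 0.00859). Clock genes gave 4 rises and 1 fall of 19 (background 6.59% and 5.77%), with 2 rises without Con replicate 2. The fall was that of Bhlhe41, a repressor of the clock (-0.99, SE 0.25, adjusted p = 0.0245), lost without Con replicate 1, 3, 4 or 5 (adjusted p 0.052 to 0.0553). Rora, a nuclear receptor that activates Bmal1, stood at 9.65, 8.06, 9.76, 9.98 and 11.3 TPM in Con and at 17.2, 26.6 and 40.3 TPM in CAC, without overlap (1.40, SE 0.18, adjusted p = 0.00122). Nfil3, a repressor of the same clock, stood at 7.61, 9.51, 9.52, 8.52 and 19.8 TPM in Con and at 9.81, 85.3 and 105 TPM in CAC (2.41, SE 0.49, adjusted p = 0.00895). The hour of sampling is not among the labels used here, and its part in the clock genes was not tested. Of the p53 targets 5 of 20 rose (background 6.59%) and 0 fell by limma (7 and 1 at an unadjusted p under 0.05). The rises numbered 3 without CAC replicate 2, 4 or 6, without Con replicate 2 or 5 or with no filter on low values, and 2 without Con replicate 1, 3 or 4. Trp53inp1 rose by 1.68 (SE 0.35, adjusted p = 0.00945) and Eda2r, a receptor for ectodysplasin A2, by 0.88 (SE 0.14, adjusted p = 0.00321), both without overlap. Cdkn1a, the cell cycle inhibitor p21, did not pass, at 16 to 35.4 TPM in Con and 16.8 to 102 TPM in CAC (0.77, SE 0.38, adjusted p = 0.204).

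Slow fibre genes were lower in part, while the myosin heavy chains did not pass. Of 12 slow fibre genes 4 fell (background 5.77%) and 0 rose by limma (6 and 0 at an unadjusted p under 0.05), with a median of -0.77. The falls numbered 7 without CAC replicate 3, 2 without CAC replicate 1 or Con replicate 1, 2, 4 or 5, 1 without Con replicate 3, and 1 with no filter on low values. Mb, myoglobin, the oxygen store of oxidative fibres (chromosome 15, 77015487 to 77050670), stood at 11472, 9233, 11460.5, 11535 and 10077 TPM in Con and at 2160, 5588 and 8217 TPM in CAC. The groups were separate (-1.19, SE 0.32, adjusted p = 0.0282), but the call was lost without CAC replicate 1 or Con replicate 1, 3, 4 or 5 (adjusted p 0.0523 to 0.0663). Pln, phospholamban, the brake on the slow calcium pump, stood at 13.1, 8.95, 6.8, 14.3 and 7.91 TPM in Con and at 0.519, 1.49 and 10 TPM in CAC. CAC replicate 3 was the library inside the Con range (-1.85, SE 0.40, adjusted p = 0.0119). Myl2, the slow regulatory light chain, fell from 6294 to 9333 TPM in Con to 3095, 3646 and 6921 TPM in CAC (-0.91, SE 0.22, adjusted p = 0.0208; lost without Con replicate 2 or 3, adjusted p 0.0518 and 0.0538). Tnni1, slow troponin I, had a log2 difference of -0.81 (SE 0.25, adjusted p = 0.0492). That call was lost on leaving out any library but CAC replicate 3 (adjusted p 0.062 to 0.108).

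Myh7, the slow myosin, stood at 2937, 1649, 2599, 2552 and 2735 TPM in Con and at 453, 2536 and 4671 TPM in CAC (-0.33, SE 0.45, adjusted p = 0.68), and the difference was 0.02 without CAC replicate 6. Myh2, the fast oxidative myosin, ranged from 394 to 1416 TPM in Con and from 453 to 1765 TPM in CAC (0.17, SE 0.39, adjusted p = 0.813). Myh1, the fast 2X myosin, was between 19.5 and 93.8 TPM in 4 Con libraries and at 1531 TPM in Con replicate 3, against 108, 349 and 1667 TPM in CAC (2.17, SE 0.95, adjusted p = 0.151). It passed without Con replicate 3 (3.18, adjusted p = 0.0209). The groups overlapped for each of these 3 myosins. Myh4, the fastest myosin, reached 2040 TPM in CAC replicate 6 and 23.6 TPM or less in the other 11 libraries (1.14, SE 1.17, adjusted p = 0.566). Atp2a1, the fast-fibre calcium pump, was the 1 fast fibre gene of 14 to pass, at 2211, 1043, 2876, 2078 and 1249.9 TPM in Con and 2264, 4860.4 and 5977 TPM in CAC (1.24, SE 0.31, adjusted p = 0.0226). The call did not hold without Con replicate 2 or 5 (adjusted p 0.0605 and 0.0633). Cacng1, a subunit of the muscle calcium channel, rose by 1.495 without overlap (SE 0.29, adjusted p = 0.00711), and Des, the intermediate filament desmin, by 0.95 (SE 0.21, adjusted p = 0.013). Among 30 sarcomere core genes 1 rose and 2 fell, near the background of 6.59% and 5.77%. The falls numbered 1 without CAC replicate 1, 2, 4 or 7 or Con replicate 2, 3, 4 or 5 and 0 without Con replicate 1.

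**Figure D3:**
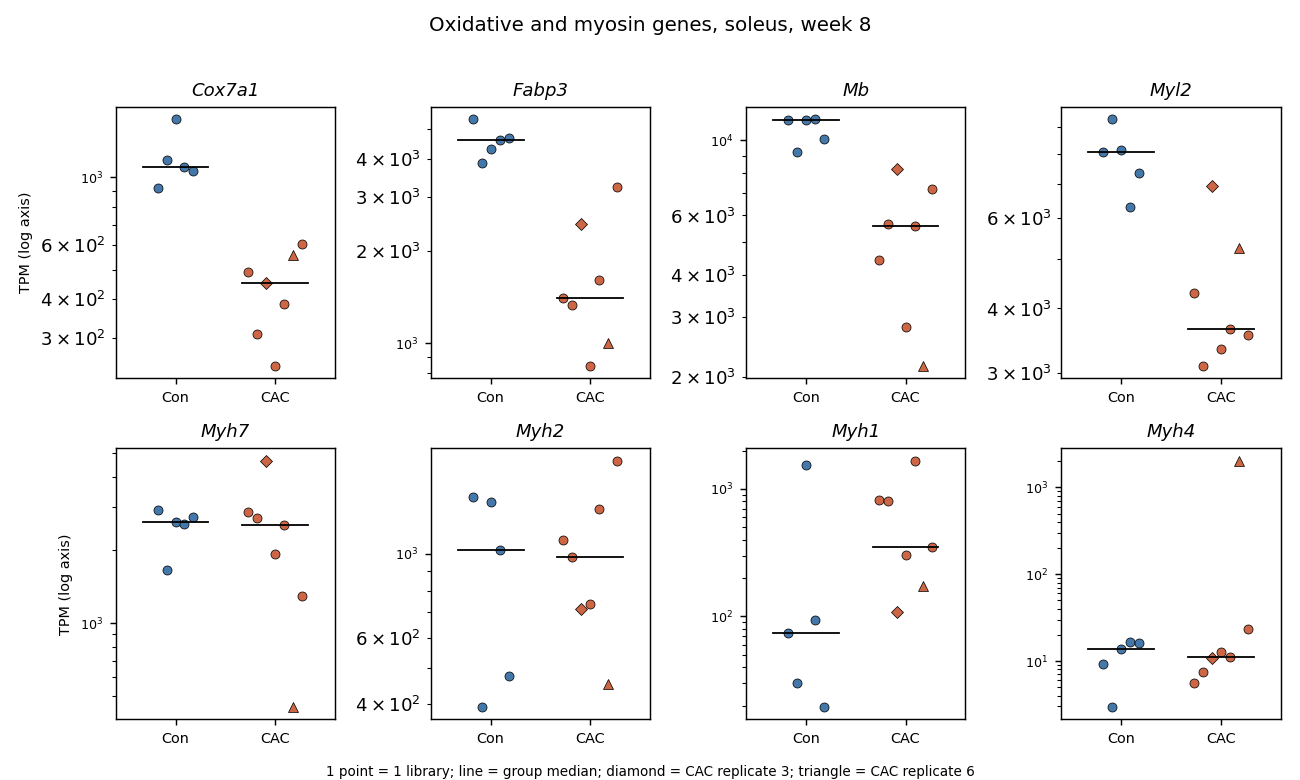
TPM on a log axis in each library of Con (5, blue) and CAC (7, orange), with group medians as lines. The genes are the oxidative Cox7a1, Fabp3 and Mb, the slow light chain Myl2 and 4 myosin heavy chains. The groups are separate for Cox7a1, Fabp3 and Mb and overlap for Myl2 and the 4 heavy chains. CAC replicate 6 (triangle) is at 2040 TPM of Myh4.

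Nuclear genes of the respiratory chain were lower in CAC. Of 78 genes 33 fell and 0 rose by limma (58 and 0 at an unadjusted p under 0.05), the median was -0.43, and in 23 of them every CAC library lay below every Con library (background 2.9%). The falls ranged from 14 to 45 when 1 library was left out, and numbered 17 on omitting CAC replicate 2 or Con replicate 5, 18 on omitting Con replicate 2 and 14 on omitting Con replicate 3. Cox7a1, the muscle isoform of a cytochrome oxidase subunit (chromosome 7, 30184144 to 30186078), stood at 920.4, 1137, 1544, 1080.3 and 1044 TPM in Con and at 243, 451 and 606 TPM in CAC (-1.44, SE 0.22, adjusted p = 0.00278). Ndufb2 of complex I stood at 56.5, 72.5, 68.2, 55.8 and 68.2 TPM in Con and at 33.6, 41.6 and 45.1 TPM in CAC (-0.65, SE 0.11, adjusted p = 0.00358). Both were lower in each CAC library than in any Con library, replicate 3 included. Ndufb8 (-0.85, SE 0.17, adjusted p = 0.00727) and the ATP synthase genes Atp5g1 (-0.63, SE 0.12, adjusted p = 0.00695) and Atp5j (-0.62, SE 0.12, adjusted p = 0.00562) were separate as well. Mitochondrial ribosomal protein genes fell in 10 of 77 cases and rose in 0 by limma (27 and 1 at an unadjusted p under 0.05; background 5.77% lower), among them Mrpl42 (-0.60, SE 0.13, adjusted p = 0.0102) and Mrps28 (-0.42, SE 0.09, adjusted p = 0.0139). On omitting CAC replicate 1 the count was 6, on omitting CAC replicate 2 it was 5, and it was 4 with Con replicate 2 or 5 omitted and 2 with Con replicate 3 omitted. Transcripts of the mitochondrial genome itself had a median of -0.02 over 13, with 1 rise, mt-Atp8, at 4711 to 13854 TPM in Con and 14027 to 25181 TPM in CAC (1.09, SE 0.28, adjusted p = 0.0239). That call was lost without Con replicate 2, 3 or 5 (adjusted p 0.0531 to 0.068), and mt-Atp8 overlaps the neighbouring mt-Atp6, so reads may be shared. Cytosolic ribosomal proteins had 0 calls among 83 by limma (2 higher and 0 lower at an unadjusted p under 0.05).

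Fuel and cofactor genes gave single large changes. Fabp3, the fatty acid carrier of oxidative muscle (chromosome 4, 130308595 to 130315463), stood at 5394, 3884, 4327, 4605 and 4677 TPM in Con and at 845, 1407 and 3243 TPM in CAC, without overlap (-1.56, SE 0.30, adjusted p = 0.00656). It was the 1 fall among 31 genes of fatty acid uptake and oxidation (0 rises by limma, 1 higher and 14 lower at an unadjusted p under 0.05), and the falls numbered 7 on omitting CAC replicate 3, 2 on omitting CAC replicate 7 and 3 on omitting Con replicate 2. The TCA cycle and PGC-1 list had 1 fall of 29, Mdh1 (-0.92, SE 0.28, adjusted p = 0.0468), lost without CAC replicate 1, 2, 4 or 7 or any of the Con replicates (adjusted p 0.0605 to 0.105), and 3 genes of it fell without CAC replicate 3. Ppargc1a, the coactivator PGC-1α, did not pass (0.48, SE 0.49, adjusted p = 0.565), and CAC replicate 7 held 53.7 TPM against 14.4 TPM or less in the other CAC libraries. Nmrk2, the muscle kinase that makes NAD from nicotinamide riboside (chromosome 10, 81198170 to 81202051), stood at 114, 80.2, 78.5, 74 and 51.1 TPM in Con. In CAC it was at 0.706, 5.16 and 74.6 TPM, where the highest value was that of replicate 3 and the other 6 libraries were at 9.18 TPM or less (-3.63, SE 0.74, adjusted p = 0.00915). Nampt, the rate-limiting enzyme of the main salvage route, rose from 56 to 78 TPM in Con to 99.4, 141 and 188 TPM in CAC (1.02, SE 0.15, adjusted p = 0.00206). Cd38, which consumes NAD, rose by 1.15 (SE 0.18, adjusted p = 0.00297), and Sirt1, an NAD-dependent deacetylase, by 0.74 (SE 0.16, adjusted p = 0.0125), both without overlap. Sirt3, its mitochondrial relative, had a difference of -0.43 (SE 0.12, adjusted p = 0.0327), lost without CAC replicate 1, 2 or 4 or Con replicate 1, 2, 3 or 5 (adjusted p 0.0506 to 0.0924).

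Among 28 genes of insulin and IGF signalling 2 rose and 3 fell, near the background of 6.59% and 5.77%. The rises numbered 9 on omitting CAC replicate 3 and 5 on omitting CAC replicate 6. They numbered 1 when CAC replicate 1, 2 or 4 or any of the Con replicates was omitted, or with no filter on low values. Grb14, an adaptor that blocks the insulin receptor, stood at 12.1, 5.26, 7.96, 9.9 and 7.09 TPM in Con and at 1.04, 1.92 and 5.64 TPM in CAC (-1.52, SE 0.27, adjusted p = 0.00482). Of the IGF binding proteins, Igfbp3 rose by 1.90 (SE 0.43, adjusted p = 0.0147), while Igfbp5 (-1.75, SE 0.36, adjusted p = 0.00945) and Igfbp6 (-1.44, SE 0.29, adjusted p = 0.00879) fell, each without overlap. Insr, the insulin receptor, rose by 0.55 (SE 0.16, adjusted p = 0.0423), lost without CAC replicate 1, 2, 4 or 5 or any of the Con replicates (adjusted p 0.0632 to 0.0951). In the myostatin and activin list 5 of 23 rose and 5 fell (background 6.59% and 5.77%), with 3 falls in the 17-library fit. The ligands Tgfb2 (-1.23, SE 0.20, adjusted p = 0.00326), Tgfb3 (-0.69, SE 0.12, adjusted p = 0.00429) and Tgfb1 (-0.69, SE 0.15, adjusted p = 0.0118) were lower. Tgfbr1, their receptor, rose by 0.74 (SE 0.10, adjusted p = 0.00188) and Nog, the BMP antagonist noggin, by 1.08 (SE 0.21, adjusted p = 0.00727). Mstn, myostatin, was under 1.2 TPM in 11 of the 12 libraries and at 12.5 TPM in CAC replicate 6, so it did not pass the filter and was not tested.

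Matrix and tendon genes were among the largest falls. Of 24 collagens and related matrix genes 12 fell and 0 rose by limma (18 and 0 at an unadjusted p under 0.05), with a median of -1.12. Mfap4, a microfibril protein (chromosome 11, 61485431 to 61488900), stood at 65.3, 93, 91.2, 53.4 and 72.6 TPM in Con and at 3.82, 8.08 and 20 TPM in CAC (-2.95, SE 0.33, adjusted p = 7.51e-04). The highest CAC library was below the lowest Con library, as it was for Col6a1 (-1.55, SE 0.33, adjusted p = 0.0114), Col6a2 (-1.67, SE 0.35, adjusted p = 0.0105), Col5a3 (-1.94, SE 0.36, adjusted p = 0.00581) and Col15a1 (-1.31, SE 0.28, adjusted p = 0.0111). Tenocyte markers fell in 7 of 12 cases and rose in 0 by limma (9 and 0 at an unadjusted p under 0.05), with a median of -0.87. Chad, chondroadherin, stood at 16.6, 73.3, 62.5, 41.9 and 63.7 TPM in Con and at 1.29, 5.94 and 11.2 TPM in CAC (-3.05, SE 0.48, adjusted p = 0.00299). Kera (keratocan, -2.56, SE 0.53, adjusted p = 0.00937) and Cilp2, a cartilage matrix protein (-2.61, SE 0.34, adjusted p = 0.00122), were separate too, and Tnmd, tenomodulin, overlapped in CAC replicate 2 (-2.05, SE 0.42, adjusted p = 0.0088). Counts for the collagen and tenocyte lists were 11 and 7 falls without CAC replicate 3, and 9 and 6 with no filter on low values. Of 25 matrix proteases and inhibitors 2 rose and 3 fell by limma (background 6.59% and 5.77%), with a median of 0.12. At an unadjusted p under 0.05 the counts were 6 and 6. Mmp3, stromelysin, rose from 1.72 to 10.4 TPM in Con to 6.88, 54.1 and 72.9 TPM in CAC (2.84, SE 0.51, adjusted p = 0.0051), and Plat, tissue plasminogen activator, fell without overlap (-1.35, SE 0.22, adjusted p = 0.00348).

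Cell type markers differed in how they moved. Of 13 markers of fibro-adipogenic progenitors, the connective tissue cells of muscle, 4 fell (background 5.77%) and 0 rose by limma. The counts were 7 and 0 at an unadjusted p under 0.05. The sum of the markers, 4410 to 11119 TPM in CAC, overlapped with 6527 to 14054 TPM in Con. The 4 falls became 1 without CAC replicate 2 or Con replicate 2 and in the 17-library fit, and 2 without CAC replicate 1 or Con replicate 5 or with no filter on low values. The falling genes were Cd34, Dpp4, Mfap5 and Col15a1, and Col15a1 is also in the collagen list. Pdgfra (0.29), Ly6a (0.57), Dcn (0.58) and Lum (0.10) had positive differences that did not pass (adjusted p 0.27 to 0.831). The other 9 markers had negative differences. Mast cell and eosinophil markers fell in 7 of 8 cases (0 rises by limma, 7 and 0 at an unadjusted p under 0.05), with 4 falls in the 17-library fit, and their sum was 84.4 to 215 TPM in CAC and 353 to 727 TPM in Con. Mcpt4, a mast cell chymase (chromosome 14, 56059629 to 56062313), stood at 133, 266, 198, 121 and 146 TPM in Con and at 19.2, 35 and 55.1 TPM in CAC (-2.20, SE 0.29, adjusted p = 0.00132). Cma1 (-1.71, SE 0.28, adjusted p = 0.00316), Cpa3 (-1.64, SE 0.25, adjusted p = 0.0024) and the receptor genes Kit (-0.83, SE 0.14, adjusted p = 0.00356) and Ms4a2 (-0.78, SE 0.13, adjusted p = 0.00358) were separate as well. The eosinophil markers Siglecf, Prg2 and Epx were under 1 TPM in all 12 libraries. Ear2, the 1 eosinophil-associated gene of this list that was tested, was the member that did not pass (-1.03, adjusted p = 0.23). The 7 calls were therefore those of Mcpt4, Cma1, Cpa3, Tpsb2, Kit, Fcer1a and Ms4a2. Outside this list, Rnase2a of the eosinophil ribonuclease family did pass as a fall (adjusted p = 0.00732 by limma) and is given below. Retnla, a secreted product of macrophages and fat (chromosome 16, 48842551 to 48844461), stood at 1028, 1499, 562, 506 and 818 TPM in Con and at 81.6, 121 and 235 TPM in CAC (-2.54, SE 0.33, adjusted p = 0.00122). Macrophage markers had 1 fall among 13 (0 rises by limma, 1 and 1 at an unadjusted p under 0.05), that of Cd68, lost without CAC replicate 1, 2 or 5 or Con replicate 1, 2, 4 or 5 (adjusted p 0.0589 to 0.0828), and their sum of 1027 to 2796 TPM in CAC overlapped with 1210 to 2365 TPM in Con.

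In the MHC class II list 7 of 8 genes fell and 0 rose by limma (7 and 0 at an unadjusted p under 0.05), with a median of -1.44. The 6 class II pathway genes tested (H2-Aa, H2-Ab1, H2-Eb1, H2-DMa, H2-DMb1 and Cd74) were among the falls. The list also holds 2 dendritic cell genes of another kind, the integrin Itgax, which fell (-0.76, SE 0.23, adjusted p = 0.0454), a call lost without CAC replicate 1, 2, 4, 5, 6 or 7 (adjusted p 0.0631 to 0.0872), and the lectin Cd209a, which did not pass (0.21, SE 0.26, adjusted p = 0.644). Cd74, the invariant chain, stood at 831, 270.2, 152, 181 and 338 TPM in Con and at 61.8, 84.7 and 304 TPM in CAC, where the highest value was that of replicate 3. Con replicate 1 was far above the other Con libraries, and the difference of -1.47 (SE 0.43, adjusted p = 0.0424) was lost without CAC replicate 1, 2, 4, 5, 6 or 7 or Con replicate 1, 2 or 5 (adjusted p 0.0577 to 0.0937). H2-DMb1, which helps load peptides, was separate (-1.54, SE 0.31, adjusted p = 0.00832). The list had 2 falls without CAC replicate 1, 2, 4, 5 or 6, 3 without CAC replicate 7, 1 without Con replicate 1, 2 or 5, 3 in the 17-library fit and 2 with no filter on low values. Cd83, a maturation marker of dendritic cells, stood at 18.9, 17.8, 11, 11.5 and 13.5 TPM in Con and at 1.06, 2.04 and 5.09 TPM in CAC (-2.32, SE 0.25, adjusted p = 7.31e-04). Of 14 neutrophil markers 5 were tested, and 3 of them rose (background 6.59%). Those were Csf3r, Retnlg and Il1r2, with means of 1.09, 1.36 and 1.07 TPM in Con, near the filter, and 2.17, 3.85 and 6.45 TPM in CAC. The more abundant S100a8 (0.62, adjusted p = 0.312) and S100a9 (0.46, adjusted p = 0.388) did not pass. Ly6g, Mpo, Mmp8, Ngp, Camp, Ltf and Cd177 were under 1 TPM in all 12 libraries. Adipocyte markers had 0 calls of 15 by limma (0 higher and 1 lower at an unadjusted p under 0.05), and Adipoq, adiponectin, ran from 131 to 909 TPM in Con and from 118 to 1303 TPM in CAC (-0.11, SE 0.58, adjusted p = 0.931). Of 10 melanocyte and melanoma markers 3 were tested, with 0 rises and 1 fall by limma (background 6.59% and 5.77%). The fall was that of S100b (-1.09, adjusted p = 0.0144), which is also in the Schwann cell list. Mitf (0.57, adjusted p = 0.0589) and Sox10 (-0.01, adjusted p = 0.994) did not pass. Tyr, Tyrp1, Dct, Mc1r and Slc45a2 were under 1 TPM in all 12 libraries. Mlana and Pmel reached 1 TPM in at least 1 library but did not pass the filter and were not tested.

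Further large falls were those of receptor, secretory, signalling and other genes. Oxtr, the oxytocin receptor (chromosome 6, 112473683 to 112489943), stood at 5.9, 63.1, 15.6, 1.41 and 22.2 TPM in Con and at 0.0813, 0.311 and 1.22 TPM in CAC, without overlap despite the spread within Con (-3.31, SE 0.60, adjusted p = 0.00509). Scg3, a secretory granule protein, stood at 7.45, 16.1, 6.15, 5.7 and 7.9 TPM in Con and at 0.53, 1.12 and 1.94 TPM in CAC (-2.05, SE 0.23, adjusted p = 8.14e-04). Dact2, a regulator of Wnt and TGF-β signalling, stood at 17.4, 43.2, 22.3, 20.9 and 17.6 TPM in Con and at 1.77, 3.47 and 6.33 TPM in CAC (-2.45, SE 0.26, adjusted p = 7.31e-04). Tmem119, a membrane protein of bone-forming cells and microglia, was separate (-2.38, SE 0.32, adjusted p = 0.00145), and Rnase2a, of the eosinophil ribonuclease family, had a difference of -2.46 (SE 0.48, adjusted p = 0.00732). Nnat, the imprinted neuronatin gene (chromosome 2, 157560078 to 157562522), had the largest fall and a wide spread. It stood at 45.1, 292, 196, 199 and 243 TPM in Con, and in CAC at 0.148, 2.57 and 190.0 TPM, so the groups overlapped (-4.15, SE 1.15, adjusted p = 0.0335). The call was lost without CAC replicate 1, 4 or 5 or Con replicate 2, 3, 4 or 5 (adjusted p 0.057 to 0.0765).

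**Figure D4:**
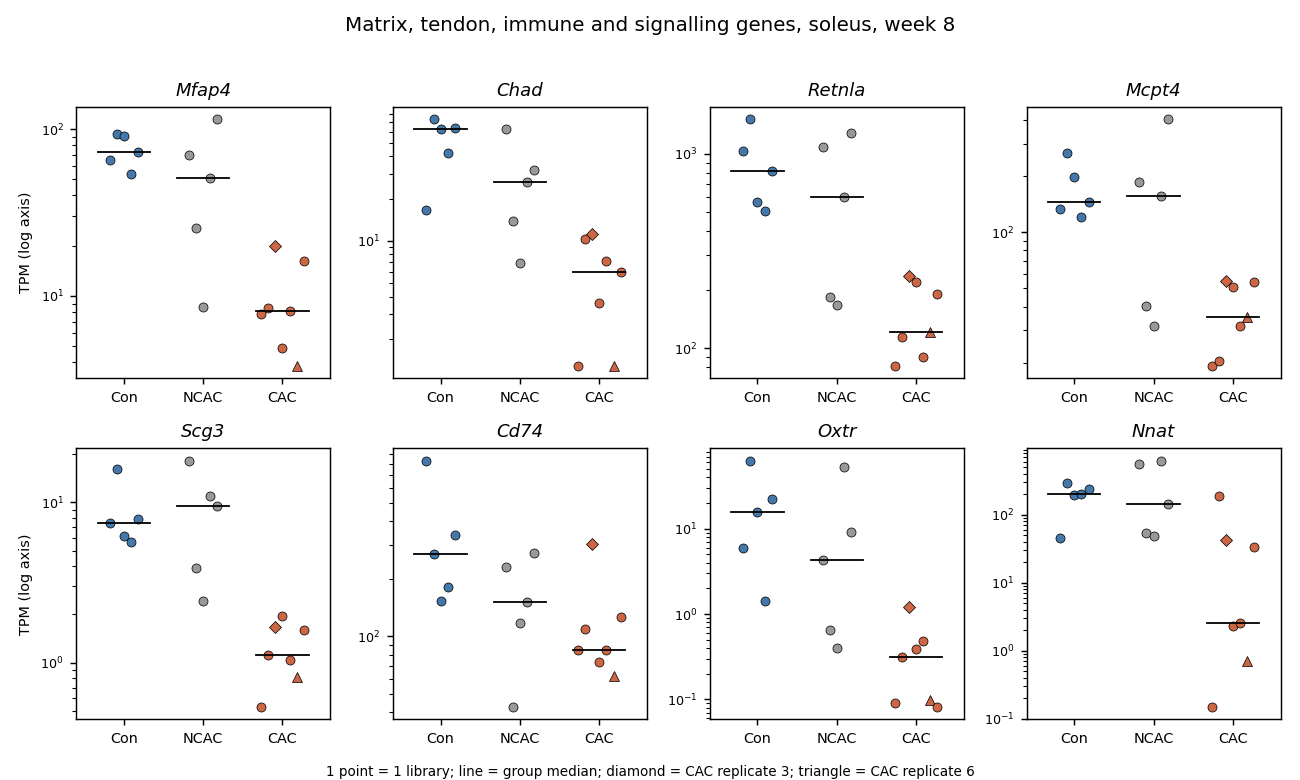
TPM on a log axis in each library of Con (5, blue), NCAC (5, grey) and CAC (7, orange) of week 8, with group medians as lines, for 8 genes that fell in CAC. NCAC replicates 2 and 3 lie below the Con median for each of the 8 genes, at 183 and 167 TPM of Retnla, whereas the other 3 NCAC libraries are at 597 to 1277 TPM.

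The comparison of CAC with the non-cachectic tumour group of the same week shares the CAC libraries with the comparison above, and its values are set beside it. In a fit of the 17 libraries of week 8, 2601 of 13203 genes were higher in CAC than in NCAC (19.7%) and 352 were lower (2.67%), around a median over all genes of 0.17. Serpina3n was higher by 4.29 (adjusted p = 3.37e-04), Stat3 by 1.39 (adjusted p = 1.20e-05), Mt2 by 4.33 (adjusted p = 0.00132) and Fkbp5 by 2.63 (adjusted p = 6.02e-04). NCAC libraries ranged from 14 to 84.4 TPM for Serpina3n and from 18.8 to 22.9 TPM for Stat3. Cox7a1 was lower by 1.46 on the log2 scale (adjusted p = 7.18e-04), with 870 to 1653 TPM in NCAC. Matrix and immune genes gave the following values against NCAC. Mcpt4 differed by -1.61 (adjusted p = 0.032) and Mfap4 by -2.07 (adjusted p = 0.00786), while Col6a1 (-0.83, adjusted p = 0.192), Cma1 (-1.27, adjusted p = 0.0725) and Cd74 (-0.38, adjusted p = 0.612) did not pass. These values rest in part on NCAC replicates 2 and 3, which held 40.3 and 31.6 TPM of Mcpt4, within the CAC range, whereas the other 3 NCAC libraries were at 158 to 405 TPM. The comparison was not refitted without them. Saa3 did not pass either (1.64, adjusted p = 0.428), with 1068 TPM in NCAC replicate 3 and 10.9 TPM or less in the other NCAC libraries.

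Few genes had a CAC effect at 8 weeks that differed from that at 6 weeks. The difference of the 2 effects, tested in a fit of the 4 groups, passed in 2 genes with a higher effect at 8 weeks (0.0152%) and 23 with a lower one (0.175% of 13162), while 1816 passed at an unadjusted p under 0.05, and the median over all genes was -0.15. With a pseudocount of 0.1 no gene passed in either direction. The named genes among them were Dact2 (-1.77, adjusted p = 0.0331), Cd83 (-1.66, adjusted p = 0.0406) and Ms4a2 (-0.78, adjusted p = 0.0441). In the same fit, the effect on Dact2 at 6 weeks was -0.68 (adjusted p = 0.0619), that on Cd83 was -0.65 (adjusted p = 0.0727), and that on Ms4a2 was 0.00 (adjusted p = 1.00). The rises of Serpina3n (4.82 at 6 weeks, difference -0.45, adjusted p = 0.81) and Stat3 (1.42 at 6 weeks, difference -0.31, adjusted p = 0.406) did not differ past the threshold. Nor did the falls of Fabp3 (-1.05 at 6 weeks, difference -0.51, adjusted p = 0.542) and Chad (-1.85 at 6 weeks, difference -1.21, adjusted p = 0.458).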

How the data were processed

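Soleus RNA was made into stranded mRNA libraries and sequenced (per the labels' protocols). The authors deposited TPM values for 47643 genes. Build mm10 is named by the submitters' processing notes. Which aligner and counter produced them is not given in the sources used here. Values in TPM are relative to the library total and give no depth, so no counting interval was computed.

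Genes with at least 1 TPM in at least 5 of the 12 libraries were kept. Their log2(TPM + 1) values entered a limma 3.58.1 model (R 4.3.3) of the groups, using an intensity trend and Benjamini-Hochberg adjustment over all genes tested. The threshold was an adjusted p of 0.05. The week 8 groups alone entered because the spread of week 8 is larger than that of earlier weeks. The procedure was tested on simulated data in which each gene varied independently. Deviations that a library shares over many genes were not simulated, so their effect on the calls was not tested. The share of mitochondrial transcripts and the number of genes at 1 TPM or more were compared with a two-sided exact permutation test over 792 arrangements.

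Named genes were the 15 largest rises and 15 largest falls among passing genes with a higher group mean of at least 5 TPM, without predicted or clone symbols. To these were added a panel of 20 genes and up to 5 passing members with the smallest adjusted p of each list described. The comparison, the panel and the 54 gene lists were chosen with earlier results of these data known. Lists are described by counts and medians, without a set test. Gene coordinates come from GENCODE M21 (mm10), where 139 of 139 named genes were found, and upstream sequences are from RefSeq (GRCm38.p6). Alternatives were a pseudocount of 0.1, no filter, median-of-ratios rescaling, fits of 17 or 62 libraries, a block for the replicate number, weights for sample quality, and omission of each library in turn. Leaving out CAC replicates 3 and 6 together, and a fit of replicates 1 to 5 without the block, were added after seeing the data. Figures used matplotlib 3.10.9 (Python 3.11.15).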

Additional observations from a re-analysis of the deposited data

Results flagged for a closer look

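In 278 groups of libraries of the named genes, 28 held a library far from the others of its group (Dixon's criterion), where chance gives about 1 in 20 groups. CAC replicate 3 was that library in 12 of them. It held 88.7 TPM of Serpina3n, 2.90 TPM of Serpina3m, 6.88 TPM of Mmp3, 25.3 TPM of Fkbp5, 15.9 TPM of Socs3 and 9.81 TPM of Nfil3. It also held 138 TPM of Cxcl14, 321 TPM of Glul, 268 TPM of C3, 17.6 TPM of Sbno2, 17.3 TPM of Tgfbr1 and 1.30 TPM of Itgax. CAC replicate 6 was far from its group for Myh4 (2040 TPM), Cacng1 (585 TPM) and Mstn (12.5 TPM), and CAC replicate 7 for Ppargc1a (53.7 TPM).

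Among the Con libraries, replicate 1 stood apart for Ccl8 (233 TPM), C6 (3.97 TPM) and Nnat (45.1 TPM). Replicate 2 stood apart for Igfbp5 (669 TPM), Dact2 (43.2 TPM), Plat (54.0 TPM), Dpp4 (26.3 TPM), Myh7 (1649 TPM), Serpina3k (1.70 TPM) and Adamts4 (0.682 TPM). Replicate 4 did so for Nog (6.23 TPM) and replicate 5 for Nfil3 (19.8 TPM). The CAC effect at 8 weeks differed from that at 6 weeks, by limma's interaction contrast, for Dact2 (-1.77), Cd83 (-1.66) and Ms4a2 (-0.78).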

How the results depend on the processing

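Leaving out 1 library at a time gave 451 to 1224 higher and 391 to 1024 lower genes. The higher genes fell below the main count by over 1.5 times without CAC replicate 2 (532) or Con replicates 1 (509), 2 (554), 3 (451), 4 (488) or 5 (544), and the lower genes without CAC replicate 2 (490) or Con replicates 2 (391), 3 (449) or 5 (421). The fit of all 62 libraries gave 2185 higher and 2021 lower, sample quality weights gave 1865 and 1240, and omission of CAC replicates 3 and 6 gave 1619 and 1049. Deviations of same-numbered libraries from their group means correlated at -0.276 to 0.329. Of the 5 numbers, 1 matched itself best, replicate 1 at 0.329. So few pairs cannot settle whether the replicate numbers pair the libraries. With the replicate block (replicates 1 to 5) 495 genes were higher and 274 lower, against 1314 and 674 in the same libraries without the block. With it the falls numbered 0 in the slow fibre list, 1 in the lists of mitochondrial ribosomal proteins, fibro-adipogenic progenitors and MHC class II, and 17 in the respiratory chain, and the rises numbered 7 in the glucocorticoid and FoxO list and 2 in the chemokine, AP-1 and p53 lists. Pseudocount, low-value filter, rescaling and the 17-library fit kept both counts within 1.5 times. For the difference between 8 and 6 weeks, a pseudocount of 0.1 left 0 higher and 0 lower genes by limma (1814 at an unadjusted p under 0.05), rescaling gave 19 higher, and the fit of all 62 libraries gave 32 higher and 166 lower. The causes were not tested.

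Of 128 named genes that passed, 88 did so whichever library was left out. The reversals were of values that did not pass. With the replicate block, and equally in replicates 1 to 5 without it, Myh4 was at -0.14, Adipoq at 0.023 and Myh7 at 0.20. Adipoq was at 0.26 with quality weights and 0.095 without CAC replicates 3 and 6. Leaving out 1 library gave -0.57 to 0.21 for Adipoq, -0.54 to 0.018 for Myh7, -0.090 to 0.37 for Myh2 and -0.042 to 0.38 for Pdk4. The share of TPM in transcripts of the mitochondrial genome differed by -3.03 to 0.709 percentage points, positive without Con replicate 4. The number of genes at 1 TPM or more differed by -233 to -80.3. TPM values carry no depth, so the counting error of low genes is unknown.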
